A study of Mus musculus with 4 samples.

Results

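The keratins of the suprabasal layers of the epidermis were examined in mouse skin at E17.5, late in embryonic development, with and without overexpression of the transcription factor gene Ovol2. The members were named by gene symbol: Krt1, Krt10, Krt2, Krt77, Krt78 and Krt80. All 6 were found among 19938 genes, each through 1 probe set that names that gene alone. Of the 6, 5 entered the test across genes, because Krt2 lay below a limit on mean level.

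Keratins are the subunits of intermediate filaments in epithelial cells, and each filament is built from pairs of a type I and a type II protein. Cells of the basal layer of the epidermis make the pair of type II Krt5 and type I Krt14. When a cell leaves that layer and begins to differentiate, it turns to the pair of type II Krt1 and type I Krt10, whose filaments are anchored at desmosomes and give the skin its mechanical strength. Krt2, Krt77, Krt78 and Krt80 are further type II keratins of differentiating keratinocytes. Of these, Krt2 belongs to the uppermost living layers.

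The control arrays held skin of mice that carried the tetracycline-responsive transgene TRE-Ovol2-Flag without a driver, or of wild type mice. The Ovol2 BT arrays held skin of mice that carried TRE-Ovol2-Flag and also K5-tTA, a transactivator driven by a keratin 5 promoter, which is active in basal cells. Each group had 2 arrays, each with RNA pooled from 2 mice, all labelled female and as littermates raised together. The strain label is CB6F1 on both controls and FVB/N on both Ovol2 BT arrays, so a strain effect and a transgene effect cannot be told apart. The whole skin was used, so in these data fewer keratinocytes and less keratin RNA in each keratinocyte cannot be told apart.

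The sequence just before the transcription start is shown for the 4 of 6 members that matched the RefSeq promoter table (GRCm38.p6). Krt1 and Krt80 had no match there and are not shown. The 4 include the members that differed most in opposite directions (Krt77 and Krt78) and Krt10, which barely differed. Each run holds the 250 bases before the start, read 5′ to 3′ on the gene's own strand, outside the transcribed gene. Capitals mark matches to the TATA motif TATANA on either strand.
Krt10 (chr11:99389365-99389614, minus strand): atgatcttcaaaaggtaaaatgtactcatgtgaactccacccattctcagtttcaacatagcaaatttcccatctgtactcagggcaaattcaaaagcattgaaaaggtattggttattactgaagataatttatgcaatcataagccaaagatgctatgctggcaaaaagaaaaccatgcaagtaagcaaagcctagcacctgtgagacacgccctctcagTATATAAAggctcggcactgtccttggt
Krt2 (chr15:101818170-101818419, minus strand): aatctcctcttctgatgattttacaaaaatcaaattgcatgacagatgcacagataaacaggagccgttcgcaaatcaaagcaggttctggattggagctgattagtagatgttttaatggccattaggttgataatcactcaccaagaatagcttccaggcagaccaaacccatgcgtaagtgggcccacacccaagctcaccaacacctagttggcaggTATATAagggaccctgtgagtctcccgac
Krt77 (chr15:101869706-101869955, minus strand): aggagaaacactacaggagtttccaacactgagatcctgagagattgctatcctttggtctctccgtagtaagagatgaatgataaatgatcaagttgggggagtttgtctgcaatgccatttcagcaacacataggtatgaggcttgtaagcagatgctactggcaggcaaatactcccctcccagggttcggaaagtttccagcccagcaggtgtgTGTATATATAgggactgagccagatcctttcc
Krt78 (chr15:101954288-101954537, minus strand): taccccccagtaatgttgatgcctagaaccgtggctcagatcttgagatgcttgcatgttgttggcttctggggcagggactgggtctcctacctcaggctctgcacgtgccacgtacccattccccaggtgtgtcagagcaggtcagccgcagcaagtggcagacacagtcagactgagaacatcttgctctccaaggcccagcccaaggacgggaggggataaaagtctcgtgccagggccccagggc
Krt10, Krt2 and Krt77 held a TATANA match that began between 26 and 32 bases before the start, and in Krt77 several matches overlapped. Krt78 held no exact match in this window. Its run gataaa near the start differs from TATANA in the first base only, so Krt78 cannot be read as lacking a TATA-like sequence. Of 32851 promoters of the same length in the table, 22.6% held an exact TATANA match, on either strand and anywhere in the 250 bases. A further 4 motifs were searched on both strands: CCGTTA, bound by Ovol factors, TGANTCA (AP-1), AACCNGTT (Grainyhead-like factors) and GCCNNNGGC (AP-2). They were found in 2.18%, 6.75%, 1.79% and 13.7% of all promoters and in none of the 4 shown here.

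The values are probe set intensities on a linear scale, and differences are Ovol2 BT minus control on the log2(intensity + 16) scale. A gene was called when its adjusted p was under 0.05 in limma, a linear model with variances shared across genes (Benjamini-Hochberg over 14953 genes). With 2 arrays a group, precision is low for every value. Ovol2 itself had intensities of 360 and 161 in control arrays and 4367 and 3893 in Ovol2 BT (adjusted p = 0.00309), in the direction the labels state. Of all tested genes 144 were called (0.963%), 92 higher and 52 lower, and the count grew to 351 when control replicate 1 was left out and to 244 when Ovol2 BT replicate 2 was. With arrays centred on the mean of cell junction genes the split was 219 higher and 19 lower, and the median of all genes moved from -0.04 to 0.29. None of the 5 tested suprabasal keratins was called by limma. Of the 5, 2 (Krt77 and Krt78) had an unadjusted p under 0.05, where 1550 of all tested genes (10.4%) had one.

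Krt1 and Krt10, the main keratin pair of the spinous layer, differed little between the groups. Krt1 had intensities of 11944 and 10110 in the first and the second control, against 10224 and 9371 with Ovol2 overexpressed. The groups overlapped, since the higher Ovol2 BT array lay above the lower control array. The log2 difference was -0.17 (SE 0.14, adjusted p = 0.692), with a 95% interval from -0.48 to 0.15, that is from 1.4-fold lower to 1.11-fold higher. Krt10 read 10654 and 9152 in the controls against 9303 and 8733 in Ovol2 BT, again with overlapping groups. Its difference was -0.13 (SE 0.14, adjusted p = 0.754), with an interval from -0.45 to 0.18. Relative to each other they moved little. The log2 value of Krt1 minus that of Krt10 on the same array was 0.17 and 0.14 in control skin and 0.14 and 0.10 in Ovol2 BT, a change of -0.04. This change turned to 0.057 under quantile normalization. Both probe sets lay near the top of the intensity scale, with 23 to 62 of 35557 probe sets brighter than Krt1 and 55 to 96 brighter than Krt10 on an array; whether a ceiling of the scale narrowed their differences was not tested. With arrays centred on the mean of cell junction genes the differences turned positive, 0.16 for Krt1 and 0.19 for Krt10, both below the 0.29 of the median gene there.

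Krt77, a type II keratin of suprabasal cells, had the largest difference of the 6 members and also the least even controls. Its intensity was 3060 and 1037 in control skin against 5245 and 3996 in Ovol2 BT. Both Ovol2 BT arrays lay above both controls, but control replicate 1 was 2.95 times as bright as control replicate 2. The log2 difference was 1.35 (SE 0.41, 2.55-fold, adjusted p = 0.278), with an interval from 0.42 to 2.29, and it was not called. The size depended on the control array used. It was 2.13 without control replicate 1 and 0.58 without control replicate 2. Between arrays of the same replicate number, Ovol2 BT was 1.71 times control for replicate 1 and 3.85 times for replicate 2. Control replicate 1 also had a larger summed intensity of adipocyte genes than control replicate 2 (6836 and 4305) and of granular and cornified (128284 and 90140) and spinous genes (29527 and 22519), and a smaller one of hair follicle keratins (4807 and 7780), and their part in the gap between the controls was not tested.

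Krt80, a type II keratin of late differentiating cells, was uneven within both groups. Its intensity was 1396 and 826 in control skin against 1873 and 1300 in Ovol2 BT. The second Ovol2 BT array lay below the first control, so the groups overlapped. The log2 difference was 0.53 (SE 0.29, 1.45-fold, adjusted p = 0.570), with an interval from -0.12 to 1.18. It was 0.90 without control replicate 1, 0.16 without control replicate 2, 0.27 without Ovol2 BT replicate 1 and 0.79 without Ovol2 BT replicate 2.

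Krt78, another type II keratin of the suprabasal layers, was the member with the lowest difference. It read 662 and 384 in the controls against 336 and 256 in Ovol2 BT. Both Ovol2 BT arrays lay below both controls, and the gap between the nearest arrays of the groups was small beside the gap between the controls. The log2 difference was -0.75 (SE 0.28, 1.68-fold lower, adjusted p = 0.418), with an interval from -1.40 to -0.11, and it was not called. It was -0.37 without control replicate 1 and -1.13 without control replicate 2, and -0.43 with arrays centred on the mean of cell junction genes.

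Krt2, the keratin of the upper spinous and granular layers, was dim on every array. Its intensity was 40.3 and 41.8 in control skin against 64.2 and 72.1 in Ovol2 BT, and the groups did not overlap. Its mean of 6.11 on the log2 scale lay below the limit of 6.38 that left out the lowest 25% of genes, so the fit across genes did not include it. The log2 difference was 0.56 (1.47-fold), a value that the added 16 makes smaller than the ratio of the intensities. Fitted without the limit on level, Krt2 was not called (SE 0.16, limma adjusted p = 0.276). With a pseudocount of 64 the difference was 0.33, and with 1 it was 0.71.

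**Figure D1:**
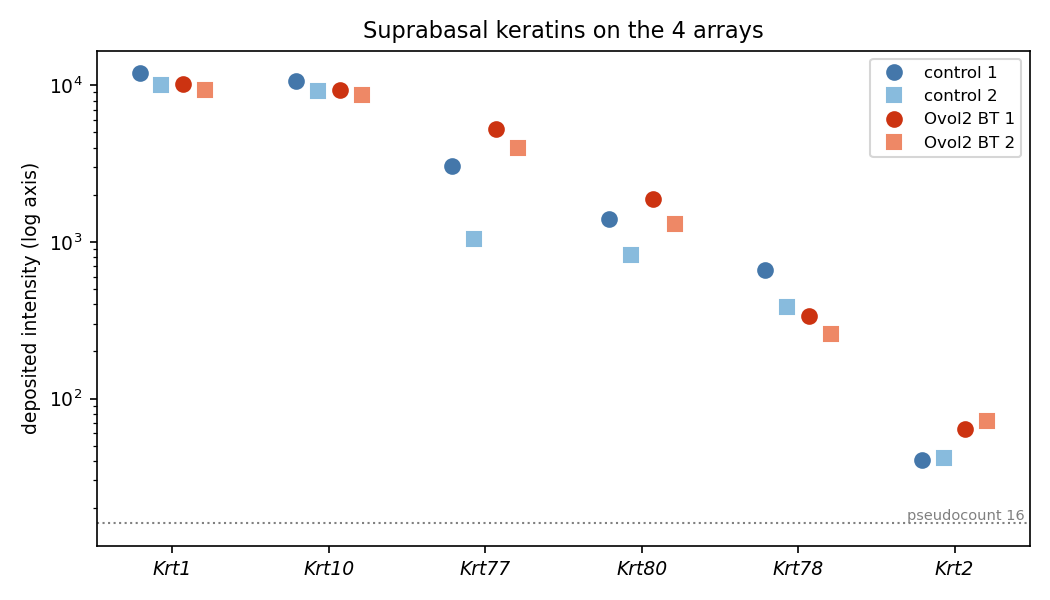
Deposited intensity (log axis) of the 6 suprabasal keratins on 2 control and 2 Ovol2 BT arrays; each point is 1 array, and the dotted line marks the pseudocount of 16. Krt1 and Krt10 overlapped between groups, both Ovol2 BT arrays were above both controls for Krt77 and Krt2 and below them for Krt78, and heights of different genes are not comparable.

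The members did not move as one. Differences ran from -0.75 in Krt78 to 1.35 in Krt77, a range of 2.10 log2 units, with 3 of 6 above 0 and 3 below, or 5 and 1 under centring on the mean of cell junction genes. The median over the 6 was 0.20, and over the 5 tested members it was -0.13, against -0.04 for all tested genes. The median over the 6 was -0.04 without control replicate 2, 0.05 without Ovol2 BT replicate 1, 0.10 with a pseudocount of 64 and 0.53 under centring on the mean of cell junction genes, so it has no settled direction. Groups did not overlap for 2 of the 5 tested members (Krt77 and Krt78), where 42.3% of all tested genes had groups that did not overlap. The members' share is thus close to that of genes at large. Over the 4 arrays the profiles of Krt1 and Krt10, each centred on its own mean, lay 0.02 log2 units apart (root mean square), and those of Krt77 and Krt78 lay 1.09 apart, the nearest and the farthest of the member pairs.

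Replicate 1 was brighter than replicate 2 in both groups for 5 of the 6 members, all but Krt2. Among all tested genes 38.2% showed that order in both groups. The labels do not say that arrays of a number share a litter or a day, so the numbers were not used to pair arrays in the fit behind the calls. A fit with the number as a block is given as an alternative setting.

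**Figure D2:**
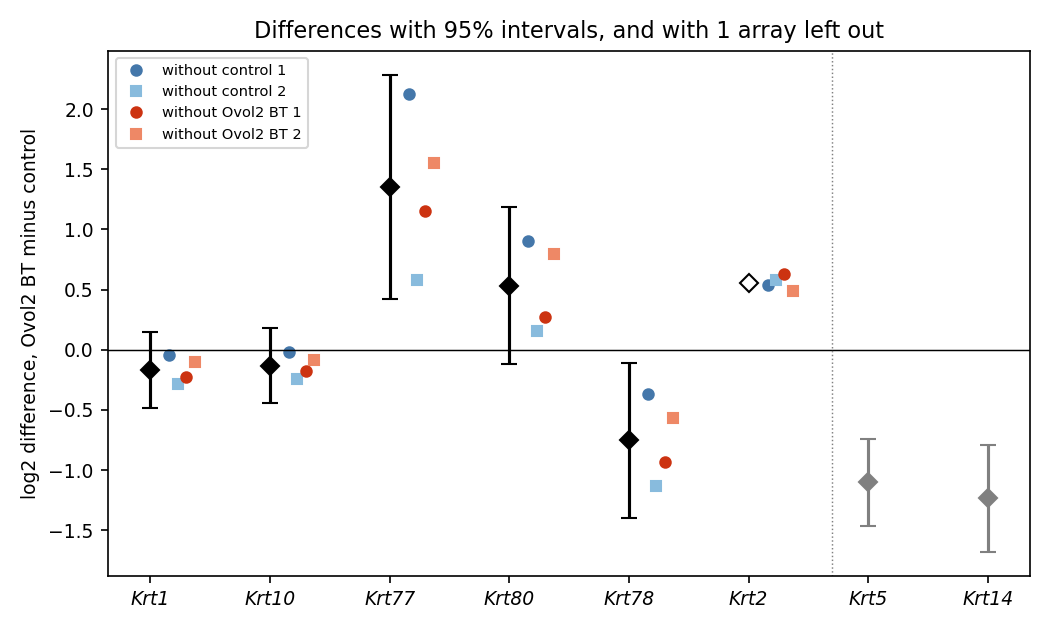
Log2 differences (Ovol2 BT minus control) of the 6 members and of the basal pair Krt5 and Krt14: diamonds with 95% intervals from limma, an open diamond for the untested Krt2, and coloured points for the members with 1 array left out. Krt77 ran from 0.58 to 2.13 depending on the array left out, while Krt1 and Krt10 stayed between -0.29 and -0.02.

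The step from basal to suprabasal keratins was then compared within each array, where a shift of a whole array on the log2 scale cancels. The basal pair was lower in Ovol2 BT: Krt5 read 9485 and 8288 in the controls against 4478 and 3790 in Ovol2 BT (log2 difference -1.10, limma adjusted p = 0.0148), and Krt14 read 6529 and 5261 against 2832 and 2170 (-1.24, adjusted p = 0.0225). The log2 value of Krt1 minus the mean of Krt5 and Krt14 was 0.60 and 0.61 in the controls against 1.52 and 1.70 in Ovol2 BT. This was a change of 1.0 (2.0-fold), between groups with SD of 0.01 and 0.13 (n = 2 each). The same difference for Krt10 was 0.44 and 0.47 in the controls against 1.38 and 1.60 in Ovol2 BT, a change of 1.04. The changes were 2.52 for Krt77, 1.73 for Krt2, 1.70 for Krt80 and 0.42 for Krt78, the last being 0.17 without control replicate 2 and 0.67 without control replicate 1. All 6 had groups that did not overlap, each with an exact permutation p of 0.333 (two-sided), the smallest that 2 arrays against 2 can give. Since the reference pair itself was lower, 95.1% of all tested genes were likewise higher against it without overlap, so the direction is not particular to suprabasal keratins. Probe sets differ in brightness for the same amount of RNA, so only the change of each difference can be read.

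Against the type I keratin Krt10, the type II members went apart. Within an array, Krt77 minus Krt10 was -1.79 and -3.12 in control skin against -0.83 and -1.13 in Ovol2 BT, a change of 1.48. The change was 0.82 without control replicate 2 and 2.15 without control replicate 1. Krt80 (0.66) and Krt2 (0.69) also changed upwards against Krt10, and Krt78 changed by -0.62. Without control replicate 2 these 3 changes were 0.40, 0.82 and -0.89, and without control replicate 1 they were 0.93, 0.56 and -0.35. All 5 had groups that did not overlap (exact permutation p = 0.333 each, the smallest possible), as had 44.1% of all tested genes.

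**Figure D3:**
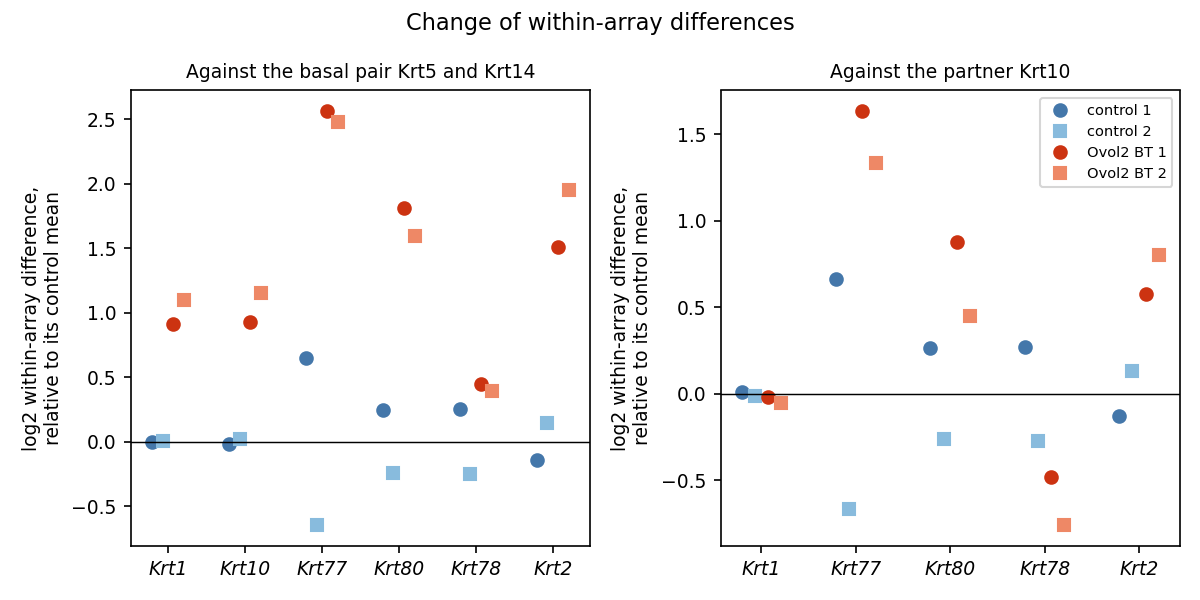
Within-array log2 differences of each member from the mean of Krt5 and Krt14 (left) and from Krt10 (right), drawn relative to the mean of the 2 controls; each point is 1 array. Every Ovol2 BT array lay above the controls on the left, and on the right Krt1 stayed near 0 while Krt77, Krt80 and Krt2 lay above the controls and Krt78 below.

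Other keratin groups held the calls that the suprabasal members lacked. Of 42 tested keratin genes 7 were called, 3 higher and 4 lower, beside 0.963% of all tested genes. All 3 basal keratins were lower, called in the full fit, with Krt15, which is also made by stem cells of the follicle bulge, at -2.29 (adjusted p = 0.00309). Of the 4 stress keratins, which keratinocytes make on injury, Krt6b rose by 3.73 (adjusted p = 0.00457) and Krt16 by 1.69 (adjusted p = 0.00758). In the list of simple epithelium and periderm keratins, Krt8, a keratin of simple epithelia, rose by 2.19 (adjusted p = 0.00497) and Krt13, a keratin of mucosal epithelia, fell by 2.10 (adjusted p = 0.0374). These were the calls among its 7 tested genes, of which 1 had a higher value and 6 had lower values (median -0.62). Of 16 tested hair follicle keratins none was called by limma, 9 had higher values and 7 lower, and the median was 0.08. An unadjusted p under 0.05 was reached by 7 of the 16 (10.4% of all tested genes had one). The smallest p belonged to Krt75 (-1.14, limma adjusted p = 0.143) and Krt28 (-1.19, adjusted p = 0.171). In limma with no trend of variance on level, Krt5 (adjusted p = 0.0525), Krt14 (0.0523) and Krt13 (0.0551) lost their calls. So did Krt14 (-0.91, adjusted p = 0.0543) and Krt13 (-1.78, adjusted p = 0.0654) under centring on the mean of cell junction genes, Krt5 under centring on their median (-0.54, adjusted p = 0.0966), and Krt13 under quantile normalization (-2.03, adjusted p = 0.0657). The difference between a called keratin and an uncalled member was not tested.

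Most type II keratin genes lie in one cluster on chromosome 15, and Krt10 lies on chromosome 11. In the reference gene order (GRCm38.p6, used here for order only), Krt2, Krt1 and Krt77 are direct neighbours. Krt76, Krt4 and Krt79 lie between Krt77 and Krt78, and Krt8 follows Krt78. Next to each other stood differences of -0.17 (Krt1) and 1.35 (Krt77), and of -0.75 (Krt78) and 2.19 (Krt8). The values of these neighbours had opposite signs, though only Krt8 among them was called. Whether neighbours differed from each other was not tested. Centred on the mean of cell junction genes, Krt1 turned positive (0.16) and still lay below Krt77 (1.68). Krt4, a mucosal keratin, was at -0.95 (limma adjusted p = 0.133) and Krt79 at -0.44.

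Other genes of suprabasal differentiation were mostly uncalled, and their counts are to be read beside the 0.963% called and the 10.4% with an unadjusted p under 0.05 among all tested genes. Of 9 tested spinous genes, 8 had lower values, with a median of -0.40 and 4 at an unadjusted p under 0.05. The 1 called was Serpinb2, encoding an inhibitor of serine proteases, which fell by 1.61 (limma adjusted p = 0.0213). Of 35 tested granular and cornified envelope genes, 28 had lower values, with a median of -0.20 and 12 at an unadjusted p under 0.05. The called genes were Tgm3, a transglutaminase that crosslinks the envelope, which fell by 1.89 (adjusted p = 0.00602), and Lce3c, a late envelope protein gene, which rose by 2.26 (adjusted p = 0.00345). Of 12 tested genes that anchor keratin at desmosomes, 11 had lower values (median -0.33) and none was called by limma, with 5 at an unadjusted p under 0.05. The desmosomal cadherin genes Dsg1b (-1.09, adjusted p = 0.0589) and Dsc3 (-0.98, adjusted p = 0.114) had the smallest p among them. Of 6 tested adherens junction genes 5 had lower values (median -0.27) and none was called by limma, with 1 at an unadjusted p under 0.05, Cdh3 (-0.77, adjusted p = 0.234); Ctnnb1 (-0.29, adjusted p = 0.593) came next. Of 31 tested regulators of epidermal differentiation, 24 had lower values (median -0.23) and none was called by limma, with 7 at an unadjusted p under 0.05. The transcription factor genes Grhl2 (-0.95, adjusted p = 0.0830) and Tfap2c (-0.96, adjusted p = 0.146) had the smallest p. These medians stand beside -0.04 for all tested genes. The cell junction genes used for centring were the anchor and adherens junction lists together. Under centring on their mean, the medians of these lists were therefore placed near 0 by the centring itself (-0.01 and 0.06). The other medians were then -0.07 for spinous, 0.12 for granular and cornified and 0.09 for regulator genes, below the 0.29 of all genes. Serpinb2 was then no longer called (-1.28, adjusted p = 0.0628).

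**Figure D4:**
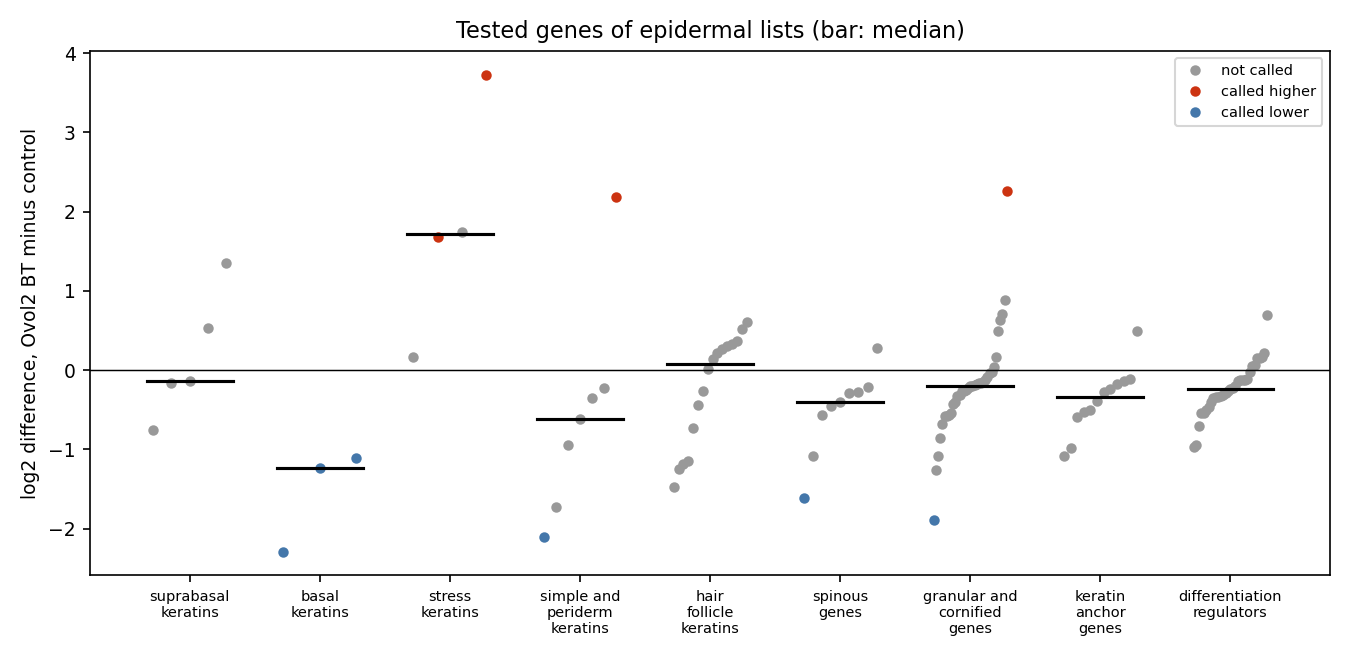
Log2 differences (Ovol2 BT minus control) of the tested genes of 9 epidermal lists; each point is a gene, coloured where called, and bars are medians. The suprabasal keratins ran from -0.75 to 1.35 with no call, and the 3 basal keratins were all called lower.

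Likeness was measured as the distance between profiles centred on their means over the 4 arrays, against 122 tested genes of the epidermal lists with the 6 members themselves left out. Within this pool Krt1 was nearest to Cdh1, the gene of E-cadherin. Cdh1 read 3022 and 2560 in the controls against 2585 and 2349 in Ovol2 BT, and at a distance of 0.01 log2 units it was also the nearest of all tested genes. After Cdh1 came Hes1, a Notch target gene, and Dmkn, a gene of suprabasal keratinocytes. In the same pool Krt10 was nearest to Cdh1 (0.03), then to Hes1 and the desmosome gene Jup; Krt1 itself lay nearer to it (0.02), and 55 of all tested genes lay at least as near as Cdh1. Krt77 had no close match in the pool: Krt86 came first at a distance of 0.48, then Sprr2d and Krt16, with the member Krt80 at 0.50, and 87 of all tested genes lay at least as near as Krt86. Krt78 was nearest to Krt23 (0.10), the transglutaminase gene Tgm1 and Krt4. Krt80 was nearest to the envelope gene Sprr2h (0.13), the claudin gene Cldn4 and Krt86, and Krt2 to Krt34 (0.04), Dsc2 and Krt36. Of all tested genes, 18 lay at least as near to Krt78 as Krt23 did, 62 to Krt80 as Sprr2h and 12 to Krt2 as Krt34. Later matches were less close: 194 lay at least as near to Krt1 as Hes1 and 527 as Dmkn. For Krt10 the counts were 256 for Hes1 and 979 for Jup. With 4 arrays such matches are a description only.

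Of the markers of other cells of the skin, adipocyte genes and the melanocyte gene Tyr held calls. The muscle, fibroblast, endothelial and immune lists held none by limma, with 2 of 10, 0 of 7, 0 of 6 and 1 of 5 at an unadjusted p under 0.05. In the adipocyte list 10 of 10 had one and in the melanocyte list 3 of 6, beside 10.4% of all tested genes. All 10 tested adipocyte genes had higher values in Ovol2 BT (median 2.08, beside -0.04 for all tested genes). Of them 7 were called, where 0.963% of all tested genes were. Their summed intensity was 6836 and 4305 in control arrays against 21084 and 21193 with Ovol2 overexpressed. The 7 were Pck1 (3.09), Cidec (3.28), Adipoq (2.42), Plin4 (2.32), Plin1 (1.85), Lipe (1.73) and Lep (1.21, the lowest of them). Of 10 tested skeletal muscle genes 9 had higher values (median 0.28), and the sums were 27618 and 27282 against 30847 and 35151. Among them Des (0.41, limma adjusted p = 0.433) and Ckm (0.36, adjusted p = 0.463) had the smallest p. The fibroblast sums were 32274 and 34023 against 33437 and 34678, which overlapped, with Lum at -0.18 and Col1a1 at 0.09. The endothelial sums were 6298 and 5941 against 6792 and 7929, with Cldn5 at 0.50 and Cdh5 at 0.27. The immune sums were 2754 and 2305 against 3367 and 3119, with Cd68 at 0.64 and Ptprc at 0.25. The melanocyte sums were 3629 and 3863 against 2715 and 2206, and Tyr fell by 1.15 (adjusted p = 0.0327), a call that ended in limma with no trend of variance on level (adjusted p = 0.0808) and under centring on the mean of cell junction genes (-0.83, adjusted p = 0.0804). No gene of these lists was under 16 on all arrays, and among the keratin lists the hair follicle sums were 4807 and 7780 against 4654 and 4685. The summed intensity of the 6 suprabasal keratins was 27756 and 21552 in the controls against 27045 and 23728 in Ovol2 BT, so the groups overlapped. The part of these other cells in the members' values was not tested.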

How the data were processed

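Skin RNA of 4 Affymetrix whole-transcript arrays was analysed, 2 control and 2 Ovol2 BT, grouped by sample title. Per the submitters' processing notes, the authors used PLIER 2.0 and Affymetrix Expression Console 1.1.1; the table they deposited holds 1 intensity a probe set, on a linear scale. How background was corrected, how arrays were scaled to each other and which genome build was used is not given in the sources. Median intensities were 123, 126, 126 and 132, and no further scaling was applied.

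Of 35557 probe sets, 21789 name 1 gene by the platform annotation (19938 genes), 1621 name several and 12147 none; only the first were used. For 999 genes with several probe sets, the one with the highest mean was taken. The lowest 25% of genes by mean log2(intensity + 16) were left out (4985 genes). In R 4.3.3, limma 3.58.1 fitted a group term to every gene (two-sided, with a trend of variance on level, and with 6.95 prior beside 2 residual degrees of freedom); the script was checked on simulated data. The titles call the arrays biological replicates. Within-array differences were tested by exact permutation. Tables were made in Python 3.11.15 with pandas 2.3.3, figures with matplotlib 3.10.9.

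The members and gene lists were chosen with earlier results of these data known. Named genes are the members, the basal keratins, of each other list the called genes or else the 2 with the smallest p, and the 3 nearest profiles per member. Krt79 and Krt4 are named beside these for their place in the cluster, after their values were seen. Alternatives were other pseudocounts (1, 64), filters (none, 50%), scalings (quantile, median, cell junction genes), variance models, probe set means, a replicate block, each array left out and a threshold of 0.10.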

Additional observations from a re-analysis of the deposited data

How the results depend on the processing

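Under 17 alternative settings the members' differences had 86 tested values, of which 77 kept their direction and stayed on the same side of the threshold, and 16 untested values, all of Krt2 and all above 0. Where only the filter, variance model, block, probe set mean or threshold changed, the difference itself could not change, only its call. Krt1 and Krt10 turned positive, at 0.39 and 0.43, with arrays centred on the median of the cell junction genes, and at 0.16 and 0.19 with their mean, an alternative chosen after seeing that the median level of these genes moved by more than their median difference. Under the median version Krt77 (1.91) and Krt80 (1.09) were called, so 2 members were called, among 4713 of all genes; under the mean version the count of all genes was 238 and no member was called by limma. In the median version, and without either control, limma's prior degrees of freedom had no upper bound, which makes its p-values small. Same-numbered arrays' deviations correlated at 0.41 across genes. With the replicate number as a block, 652 genes were called, 315 higher and 337 lower, and 2 members: Krt77 (1.35, adjusted p = 0.00537) and Krt78 (-0.75, adjusted p = 0.0291). Leaving out each array gave 204 to 351 genes (351 without control replicate 1, 244 without Ovol2 BT replicate 2), 0 to 1 members called and a Krt77 difference of 0.58 to 2.13. Of 143 within-array values, 141 moved by less than the spread between replicates. Where only the filter, the centring of arrays or the probe set mean changed, these values could not move, so the count overstates their stability. Krt1 minus Krt10 turned to 0.057 under quantile normalization, and Krt2 minus Krt10 was 0.46 with a pseudocount of 64. Krt2 has a limma test in 1 setting only, without the filter. The files give no detection calls or background, so how far above background Krt2 lay is unknown.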
